A study of Homo sapiens with 38 samples.

Results

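Of 20163 protein-coding promoters in the reference annotation of hg19, 457 carried, in K562 cells, MACS2 peaks of both H3K27ac and H3K27me3, marks with opposite associations on the same lysine. K562 is an established human erythroleukaemia line carrying the BCR::ABL1 fusion. A promoter was the window of 1.5 kb either side of a gene's outermost start (GENCODE, hg19), and it was a member where an H3K27ac peak touched it in at least 2 of 6 benchmark libraries and an H3K27me3 peak touched it in 2 of 2. The members were therefore chosen on the measured peaks, and the presence of both marks in them is not a result. The rule held at 2.27% of all protein-coding promoters, while H3K27ac alone met its part of the rule at 51.1% and H3K27me3 at 21.7%.

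The series profiled untreated K562 cells by CUT&Tag, in which an antibody tethers a transposase that cuts and tags the chromatin around the marked nucleosomes. Every library of the benchmark set came from 15 PCR cycles with SDS extraction and no trichostatin A, with antibodies ab177178 and ab4729 at 1:100 and Diagenode C15410196 at 1:50 against H3K27ac, and CST-9733 at 1:100 against H3K27me3, in 2 biological replicates each. Libraries the rule did not use came from a first antibody experiment (5 H3K27ac libraries, among them an ActiveMotif antibody, and 1 H3K27me3 library, all at 15 cycles) and from a PCR and extraction experiment (16 H3K27ac and 4 H3K27me3 libraries at 11 or 13 cycles, with SDS or column extraction, 1 library per condition). MACS2 listed 21317 to 34897 H3K27ac peaks and 65638 to 77412 H3K27me3 peaks per benchmark library on the 24 main chromosomes. The lists themselves hold no read totals, and sequencing depth was not analysed here. The cells matched their label at the lineage markers: 10 of 10 erythroid genes, among them GATA1, TAL1 and the gamma globin gene HBG1, had H3K27ac in at least 2 libraries, against 0 of 6 B cell, T cell, liver, neural and muscle genes.

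H3K27ac sits at active promoters and enhancers and is written by p300 and CBP. H3K27me3 is written on the same residue by EZH2 in Polycomb repressive complex 2, spreads over developmental genes that stay silent in a lineage, and cannot share a histone tail with acetylation at that lysine. Overlapping peaks in a bulk sample can come from neighbouring nucleosomes, the 2 alleles or different cells, among other sources, and these cannot be told apart here. The paper also names a possible bias of transposase methods towards open chromatin, and its part in these peaks was not tested.

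The peaks of both marks lay on each other in most members and side by side in few. The sequences upstream of the start are printed for some of the leading members of each kind, to show the base composition just before the start. They are 200 bases ending at the base before the start, read 5′ to 3′ on the gene's strand from GRCh37 (the assembly of hg19), overlap no annotated exon, and have each CG dinucleotide in capitals. CRKL (chr22:21271495-21271694, plus strand), MICALL2 (chr7:1499107-1499306, minus strand), PKNOX1 (chr21:44394420-44394619, plus strand) and ARF1 (chr1:228270209-228270408, plus strand) had overlapping marks.
CRKL: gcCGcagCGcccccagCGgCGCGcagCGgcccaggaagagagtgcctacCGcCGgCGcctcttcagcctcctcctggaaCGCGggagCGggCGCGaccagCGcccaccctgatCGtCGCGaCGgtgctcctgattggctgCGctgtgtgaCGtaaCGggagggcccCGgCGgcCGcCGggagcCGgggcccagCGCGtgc
MICALL2: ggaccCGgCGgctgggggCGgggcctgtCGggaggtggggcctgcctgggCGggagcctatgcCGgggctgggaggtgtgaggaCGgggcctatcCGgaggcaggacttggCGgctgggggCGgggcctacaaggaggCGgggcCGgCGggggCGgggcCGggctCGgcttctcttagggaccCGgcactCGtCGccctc
PKNOX1: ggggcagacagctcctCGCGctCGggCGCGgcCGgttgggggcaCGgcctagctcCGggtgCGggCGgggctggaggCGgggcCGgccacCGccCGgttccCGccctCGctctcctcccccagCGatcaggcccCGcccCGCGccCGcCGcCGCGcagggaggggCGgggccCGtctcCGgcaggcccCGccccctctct
ARF1: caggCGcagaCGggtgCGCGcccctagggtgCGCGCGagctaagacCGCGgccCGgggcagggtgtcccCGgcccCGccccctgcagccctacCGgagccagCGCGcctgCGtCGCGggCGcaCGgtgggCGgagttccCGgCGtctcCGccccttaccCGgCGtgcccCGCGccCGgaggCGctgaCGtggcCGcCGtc
GNAI2 (chr3:50263524-50263723, plus strand) had marks side by side.
GNAI2: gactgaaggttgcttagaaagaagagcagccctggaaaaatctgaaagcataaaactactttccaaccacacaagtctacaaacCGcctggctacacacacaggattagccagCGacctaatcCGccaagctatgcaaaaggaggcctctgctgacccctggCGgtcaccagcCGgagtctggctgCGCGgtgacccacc
The 200 bases held 29 CG dinucleotides in CRKL, 19 in MICALL2, 28 in PKNOX1 and 33 in ARF1, and 7 in GNAI2. These are single genes, and CG counts were not compared between the overlapping and side-by-side members. The stretch that lay under H3K27ac in 6 libraries and under H3K27me3 in both was chr22:21271232-21271642 in CRKL (411 bp), chr7:1499261-1499487 in MICALL2 (227 bp), chr21:44394263-44394780 in PKNOX1 (518 bp) and chr1:228269763-228270254 in ARF1 (492 bp), and each of these stretches takes in part of the printed bases.

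A member was called overlapping where every pair of an H3K27ac library with a peak and an H3K27me3 library shared at least 1 bp in the window, side by side where no pair did, and mixed otherwise. Overlap was found in 364 of 457 members (79.6%), a mixed pattern in 70 (15.3%) and a side-by-side pattern in 23 (5.03%). The 457 members lay at 398 loci, since 109 of them shared a window with another member. Of the 364 overlapping members, 352 had a stretch under every list that held a peak there, with a median length of 284 bp. Taken by library, the share of members with an H3K27ac peak in which it met H3K27me3 was 91.8% (95% Clopper-Pearson interval 89.0 to 94.3, 435 members) in ab177178 replicate 1 and 91.1% (88.0 to 93.6, 427 members) in ab177178 replicate 2. It was 94.0% (91.1 to 96.5, 327 members) and 94.1% (91.5 to 96.3, 401 members) in the ab4729 replicates, and 90.5% (87.0 to 93.5, 342 members) and 92% (88.7 to 94.5, 373 members) in the Diagenode replicates. The mean over the 6 libraries was 92.3% ± 1.51 (SD, n = 6). The intervals count promoters and cover counting error only, and all 6 libraries overlap in them. With SEACR peaks of the same libraries the mean share was 75.3%.

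Long intervals in a window of 3001 bp can meet by their length alone, so the cover of the bases was compared inside the window, which the rule did not fix. H3K27me3 covered 39.5% ± 2.97 of the bases under an H3K27ac peak and 25.8% ± 3.27 of the other bases of the same windows (SD, n = 6 H3K27ac libraries). By library the pair of values was 38.4% and 29.4% in ab177178 replicate 1, 38.0% and 29.2% in replicate 2, 45.2% and 22% in ab4729 replicate 1, 40.5% and 27.3% in replicate 2, 37.5% and 22.6% in Diagenode replicate 1, and 37.5% and 24.3% in replicate 2. The difference was above 0 in 6 of 6 libraries and averaged 13.7 percentage points ± 5.23 (exact two-sided sign-flip permutation test, p = 0.03125, the smallest p that 6 libraries allow, 0.0469 after Benjamini-Hochberg adjustment over 3 tests). The 6 libraries shared the same pair of H3K27me3 libraries and are not fully independent. With 3 antibodies as units the smallest possible p is 0.25. Both marks were most frequent near the start, and the difference is then above 0 even where they are placed without regard to each other, so its size cannot be read as attraction between the marks. Bases were therefore also compared at the same distance from the outermost start, a form added after the data were seen. The difference was then 6.22 points ± 5.20 and above 0 in 6 of 6 libraries (exact sign-flip permutation p = 0.03125). It ran from 1.49 in ab177178 replicate 2 to 15.8 in ab4729 replicate 1. This form does not allow for marks placed around another start in the window. When only peaks with a −log10 q of at least 10 (H3K27ac) and 5 (H3K27me3) were kept, the difference without matching by distance turned to −1.95 points. It was below 0 in 6 of 6 libraries (p = 0.03125 by the same exact test). This value pools all members with a remaining H3K27ac peak, while only 66 of 457 members still met the rule with those peaks. It was not measured in the 66 alone. Which members kept each mark and where the marks lay inside a window therefore cannot be told apart in it.

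**Figure D1:**
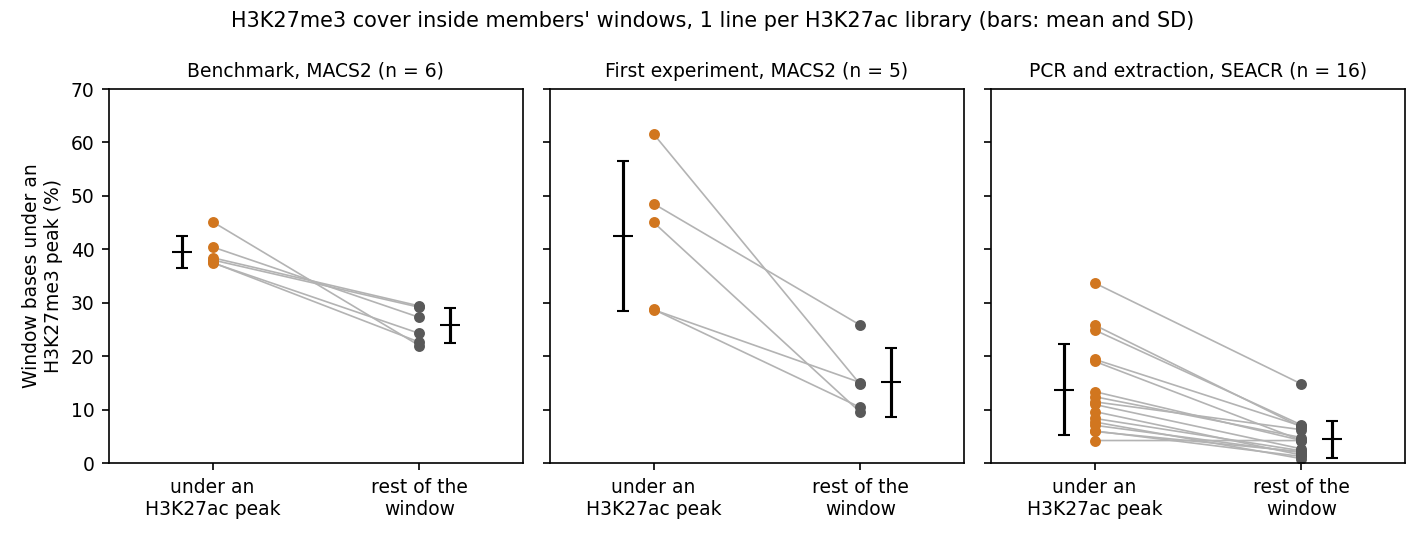
Percent of the bases of the members' windows under an H3K27me3 peak (vertical axis), for bases under an H3K27ac peak and for the rest of the window, with 1 line per H3K27ac library in 3 sets and the mean and SD at the side. All 6 benchmark lines, all 5 lines of the first experiment and all 16 of the PCR and extraction experiment fall from left to right, the last set by as little as 0.011 points.

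The same placement was measured in libraries that had no part in the choice of members. In the PCR and extraction experiment (SEACR peaks, each H3K27ac library with the H3K27me3 library of the same cycles and extraction), H3K27me3 covered 13.8% ± 8.49 of the bases under H3K27ac and 4.51% ± 3.47 of the rest (SD, n = 16 pairs). The difference of 9.25 points ± 5.73 was above 0 in 16 of 16 pairs (exact sign-flip permutation test, p = 3.05e-05, the smallest that 16 pairs can give, adjusted p = 9.16e-05). It ran from 0.011 points with ab177178 at 13 cycles and column extraction to 19.1 points with the ActiveMotif antibody at 11 cycles and column extraction. At bases of equal distance from the start it was above 0 in 15 of 16 pairs, the lowest being −1.58 points. The 4 pairs with the 11-cycle column H3K27me3 library gave the 4 largest differences, and without them the difference was 6.46 points (12 of 12 pairs above 0). The 16 pairs rest on 4 H3K27me3 libraries, and with those as units the smallest exact p is 0.125. In the first experiment the difference was 27.4 points ± 13.6 (SD, n = 5), from 13.6 with ab4729 to 46.9 with ActiveMotif, where 5 libraries cannot reach an exact p below 0.0625.

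H3K27me3 took a different shape over the members than over promoters with H3K27me3 alone. In the benchmark lists H3K27me3 was most frequent 100 bp upstream of the start, where it covered 62.3% of members, and fell to 19% and 23.3% at the upstream and downstream window edges. H3K27ac was most frequent 150 bp downstream, at 60.8% of members, as at the 9044 promoters with H3K27ac alone (at least 2 of 6 libraries, and H3K27me3 in 0 of 2), where its highest cover was 79.0% at the same distance. Libraries the rule did not use placed the members' H3K27ac summit upstream instead. It lay at 150 bp in the first experiment (27.2%) and at 100 bp in the PCR and extraction experiment (21.8%). At promoters with H3K27ac alone the summit lay 100 bp downstream in both experiments. The 3827 promoters with H3K27me3 alone (no H3K27ac peak in any of 6 libraries) had a plateau, with 54.3% covered at the upstream edge, 84.6% at the highest point and 70.9% at the downstream edge. The H3K27me3 library of the first experiment, which the rule did not use, had the same narrow summit at the members, with 47.3% covered 150 bp upstream, 15.5% at the upstream edge and 16% at the downstream edge. The few promoters with H3K27ac alone that it marked also had a narrow summit, with 1.67% covered 100 bp upstream. Their cover was 0.0442% and 0.0663% at the upstream and downstream edges.

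**Figure D2:**
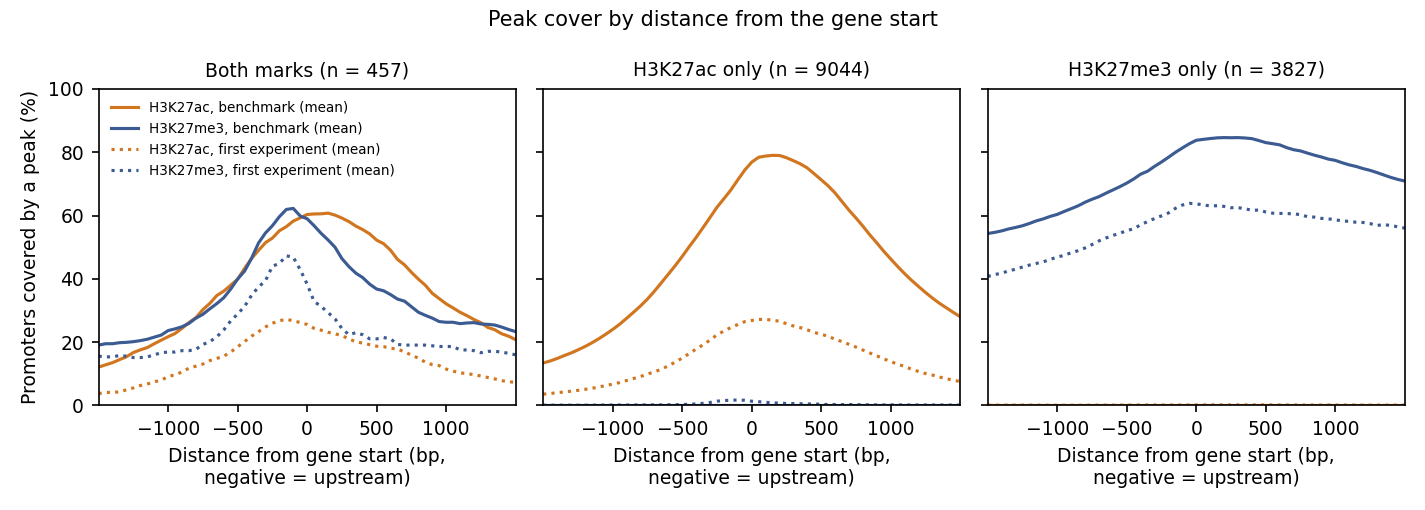
Percent of promoters covered by a peak (vertical axis) by distance from the gene start in bp (horizontal axis, negative upstream), for the 457 members and for promoters with 1 mark, as the mean over the libraries of the benchmark and the first experiment. H3K27me3 forms a narrow summit just upstream of the start at members (62.3%) and a broad plateau at promoters with H3K27me3 alone (84.6%).

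The H3K27me3 peaks that chose the members were short and low. The widest H3K27me3 peak touching a member had a median width of 954 bp in replicate 1 and 698 bp in replicate 2, against 5376 and 4835 bp at promoters with H3K27me3 alone. The highest fold enrichment per promoter had a median of 3.45 and 3.86, against 4.67 and 5.44. The highest −log10 q per member had a median of 2.39 and 3.02 and an upper quartile of 4.04 and 4.99. At promoters with H3K27me3 alone its median was 4.47 and 6.01. Grouped by that width, 215 members (47.0%) had only H3K27me3 peaks shorter than 1000 bp in both libraries, 57 (12.5%) had a peak of at least 5000 bp in both, and 185 lay between. The short group was the most acetylated, with H3K27ac in 6 of 6 libraries at 169 of 215 members (78.6%) and a median of 1304 bp of the window under H3K27ac, against 12 of 57 (21.1%) and 680 bp in the wide group. Over all members 271 of 457 (59.3%) had H3K27ac in 6 libraries, against 77.8% of promoters with H3K27ac alone.

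The first H3K27me3 library had a peak at 132 of 215 short members (61.4%), 142 of 185 in the middle group (76.8%) and 55 of 57 wide members (96.5%), beside 23.9% of all protein-coding promoters and 3.11% of those with H3K27ac alone. In the 4 H3K27me3 libraries of the PCR and extraction experiment a peak was found, on average, at 16.9% of short and 68.0% of wide members. The presence of the mark was thus found again most often where its peak was wide. These shares were not tested, as the groups were set on H3K27me3 width after the values were seen.

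H3K27me3 was found on both flanks at fewer members than promoters with H3K27me3 alone. In the 10 kb on either side of the window, 112 of 457 members (24.5%) had no H3K27me3 peak in either benchmark library, 91 (19.9%) had peaks on both sides in both, 139 (30.4%) on the upstream side alone and 75 (16.4%) on the downstream side alone. The remaining members had other patterns. Whether a peak in the window ran on into a flank was not measured. At promoters with H3K27me3 alone the share with both sides marked was 69.9% and the upstream side alone 6.19%. H3K27me3 covered 23% of the upstream flank of members and 15.3% of the downstream flank, against 37.6% and 48.1% at promoters with H3K27me3 alone and 1.60% and 0.437% at those with H3K27ac alone.

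At the 8 overlapping loci with the widest acetylation H3K27ac filled all or most of the window and H3K27me3 a smaller stretch of it. CRKL, an adaptor in kinase signalling and a substrate of the BCR-ABL1 kinase, had 3001 of 3001 bp under H3K27ac in 6 of 6 libraries and 426 and 411 bp under H3K27me3 in the replicates. MBOAT7, a lysophospholipid acyltransferase whose window also holds the start of the tRNA splicing gene TSEN34, was likewise filled by H3K27ac and had 1262 and 259 bp of H3K27me3. MICALL2, an actin regulator, had 227 and 687 bp of H3K27me3, and PKNOX1, a homeobox transcription factor of the TALE class, 683 and 520 bp, each in a window filled by H3K27ac. ARF1 (a small GTPase of Golgi transport), GNB1L with RTL10, SLC25A1 (the mitochondrial citrate carrier) and IFT25 with LRRC42 completed the 8, with 275 to 1334 bp of H3K27me3 and 2601 to 3001 bp of H3K27ac. The H3K27me3 replicates differed several-fold in MBOAT7 and MICALL2 and little in CRKL.

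The longest shared stretches were found at POTEE (mean 1925 bp), QRFP (1860 bp) and TUBA3FP (1644 bp). POTEE, an ankyrin repeat gene of a primate-specific family, had 2009, 2157, 1850, 2182, 2255 and 2218 bp of H3K27ac (ab177178, ab4729 and Diagenode, 2 replicates each) and 2012 and 1872 bp of H3K27me3. QRFP, which encodes a neuropeptide, had 3001 bp of H3K27me3 in both replicates, and its H3K27ac of 2700, 2338, 1580 and 820 bp came from ab177178 and ab4729 alone, with 0 bp in both Diagenode libraries. Among the 3 windows that the marks filled least was that of SGCE, an imprinted sarcoglycan gene, with 159, 228, 90, 109, 0 and 22 bp of H3K27ac and 233 and 109 bp of H3K27me3. NES, the intermediate filament of neural progenitors, had H3K27ac in the 2 ab177178 libraries alone (278 and 313 bp) and 204 and 26 bp of H3K27me3. BRD3OS, on the strand opposite the bromodomain gene BRD3, had 291, 426, 304 and 392 bp of H3K27ac and no Diagenode peak.

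Marks lay side by side at 23 members, none of which had H3K27ac in 6 of 6 libraries. H3K27me3 was on the upstream side of H3K27ac in 15 and on the downstream side in 8, and the median gap between the nearest bases was 1020 bp (range of the members' medians 294 to 2022 bp). SPACA5, a sperm acrosome gene that shares its window with the zinc finger gene ZNF182, had 897, 815, 0, 461, 430 and 645 bp of H3K27ac and 477 and 799 bp of H3K27me3 with a median gap of 294 bp. In this shared window H3K27me3 was downstream of H3K27ac by the strand of SPACA5 and upstream by that of ZNF182. GNAI2, an inhibitory G protein subunit, had 530, 544, 0, 337, 262 and 230 bp of H3K27ac, and its H3K27me3 of 222 and 395 bp lay upstream at a median gap of 1230 bp. At SCRT1, a neuronal repressor, H3K27me3 was the longer mark (1514 and 1759 bp) and covered the start in both replicates, with 174 to 512 bp of H3K27ac in 5 libraries. PPARA, a nuclear receptor of fatty acid oxidation, had 539, 418, 314 and 713 bp of H3K27ac, none of it from ab4729. LHX3, a LIM homeobox gene of pituitary and motor neuron development, entered on 10 to 44 bp of H3K27ac at the window edge and had 991 and 1234 bp of H3K27me3. TSNARE1, PALS2 and LRPAP1, the chaperone of the lipoprotein receptor family, completed the 8 by the same order, each with H3K27ac in 4 libraries. The separation depended on the peak caller: with SEACR lists the marks shared 339 bp at SPACA5, 252 bp at LHX3, 488 bp at LRPAP1, 413 bp at PALS2 and 124 bp at TSNARE1, and 0 bp at GNAI2 and SCRT1.

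**Figure D3:**
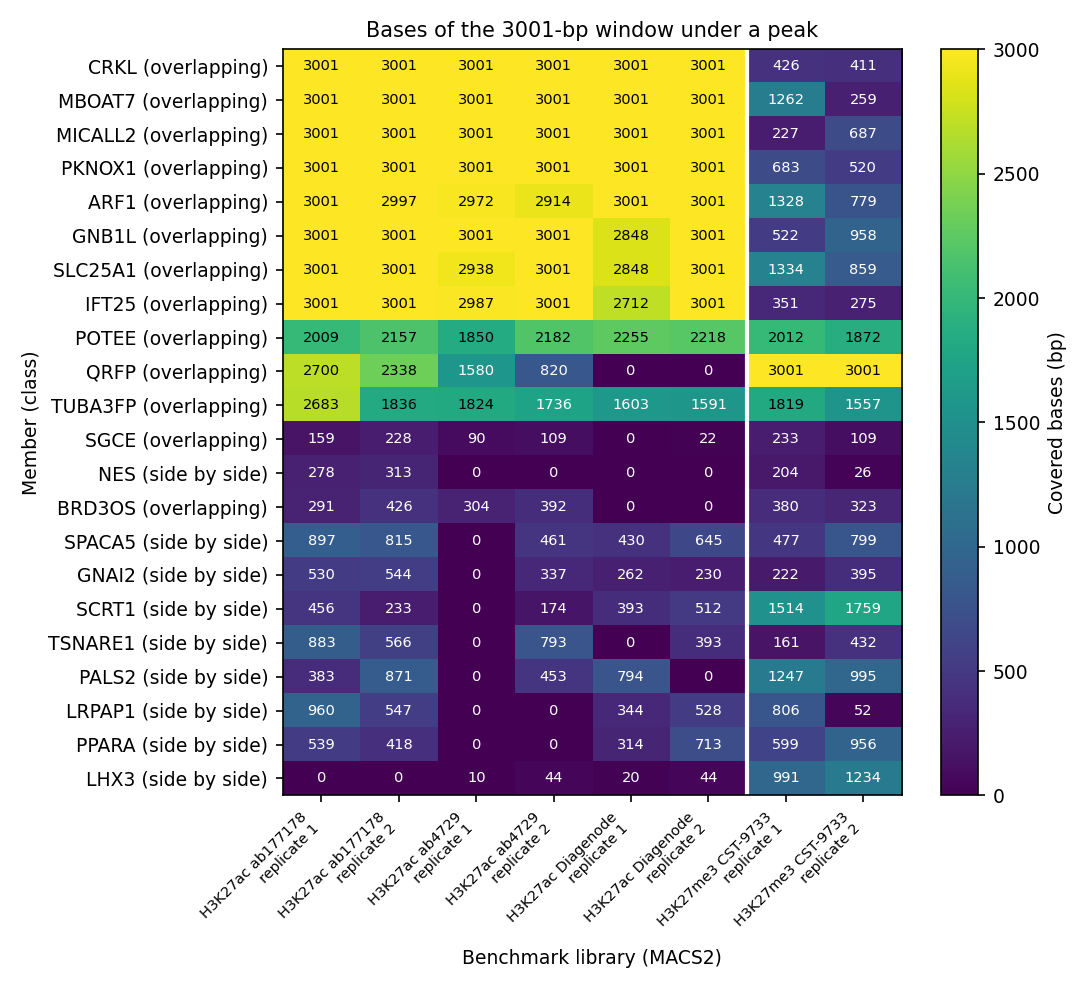
Bases of the 3001-bp window under a MACS2 peak for the 22 named members (rows, with their class) in the 6 H3K27ac and 2 H3K27me3 benchmark libraries (columns, separated by the white line). The 8 members at the top have H3K27ac over 2712 to 3001 bp and H3K27me3 over 227 to 1334 bp, while the side-by-side members at the bottom have 0 bp in ab4729 replicate 1 with the exception of LHX3.

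Gene lists set beside the members described what kinds of gene they were. Only 54 of 457 members were in any of 18 lists, and the counts are given beside the 2.27% of all promoters, with no test. HOX genes, the classical Polycomb targets, had both marks at 0 of 39 promoters, with H3K27me3 alone at 25. Among 136 other homeobox genes 3 were members (PKNOX1, POU3F2 and LHX3) and 74 had H3K27me3 alone. Among 140 forkhead, SOX, T-box and bHLH genes 5 were members (TCF19, FOXD2, TBX1, FOXO6 and TCF7L2). FOXD2 had 550 to 1463 bp of H3K27ac in 6 libraries and 1871 and 873 bp of H3K27me3, while TBX1, a T-box regulator of pharyngeal development, was under H3K27me3 over all 3001 bp in both replicates, with 364 to 1503 bp of H3K27ac in 5 libraries.

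Zinc finger regulators of the GATA, KLF, PRDM and ZBTB families had 10 members among 123 promoters (8.13%), which were PRDM10, ZBTB5, ZBTB21, ZBTB9, KLF13, ZBTB44, GATA5, KLF11, ZBTB18 and KLF15. Overlapping marks were found in 9 of these 10, KLF15 being side by side. ZBTB5 had 1330 to 2775 bp of H3K27ac and 445 and 350 bp of H3K27me3. The much larger list of ZNF genes had 9 of 508 (1.77%), led by ZNF74, ZNF280B, ZNF558 and ZNF395, with H3K27ac alone at 300. Erythroid and megakaryocyte genes had 1 member of 44, GP1BB, a subunit of the platelet von Willebrand factor receptor, with 1647 to 2681 bp of H3K27ac and 2270 and 569 bp of H3K27me3.

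Most lists of signalling and cell surface genes had shares near the 2.27% of all promoters, with ion channels (0.855%) and receptors (0.755%) below it and immediate early genes (6.67%) above. WNT, FGF, BMP, Hedgehog and Notch genes had 3 of 144 (FGFR4, BMP1 and BMP8B), ion channels 2 of 234 (KCNH2, a cardiac potassium channel, and CLCN5, neither of them overlapping), and G protein-coupled and cytokine receptors 2 of 265 (GPR155 and IL17RA). Adhesion and guidance genes had 5 of 238, among them the ephrins EFNA3 (overlapping) and EFNA1 (side by side, with H3K27me3 on the upstream side), and matrix genes 3 of 140. GPC6, a glypican, had 1283 to 1819 bp of H3K27ac and 1599 and 1427 bp of H3K27me3, and shared 1455 bp on average. Of the immediate early genes FOSL2 and NR4A3 (2 of 30) had H3K27ac in the ab177178 libraries alone. IGF1R was the 1 member of 34 tyrosine kinase genes, with 396 to 845 bp of H3K27ac in 5 libraries and 1336 and 361 bp of H3K27me3.

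Genes that every dividing cell uses were members at shares near the background. Ribosomal protein genes had 2 of 86 (2.33%), and proteasome and respiratory chain genes 5 of 149 (3.36%). RPS19 had 1535 to 2403 bp of H3K27ac and 335 and 517 bp of H3K27me3. RPL38 differed, with H3K27me3 peaks of at least 5000 bp and both marks long (1277 to 1609 bp of H3K27ac in 5 libraries, 1486 and 1446 bp of H3K27me3), yet sharing 14.8 bp on average, so that the marks met at their edges. NDUFS6 and PSMC4 carried 61 to 86 bp and 233 to 405 bp of H3K27me3 under wide H3K27ac. Polycomb genes and CDK inhibitors had 0 members of 33 and 0 of 14, and imprinted genes 1 of 42 (SGCE).

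Members were dense on 1 stretch of chromosome 22, although 415 of 457 lay elsewhere. The stretch was bounded by its own outermost members after the values were seen, so its counts partly follow from those bounds. Between CCT8L2 and BCR (chr22:17073700-23521891, 6.45 Mb) 42 of 98 protein-coding promoters (42.9%) had both marks, against 415 of 20065 (2.07%) elsewhere and 1 of 352 on the rest of chromosome 22, PPARA. Of the promoters with H3K27ac in at least 2 libraries, 42 of 70 in this stretch (60%) had H3K27me3 in both libraries, against 4.06% elsewhere. In fixed bins of 2 Mb with at least 4 members, which do not use those bounds, members were 50 to 76.9% of the promoters with H3K27ac in 3 bins of chromosome 22, 4 of 6 on chromosome 2 (110 to 112 Mb), 4 of 10 on chromosome 1 (112 to 114 Mb) and 28.6% or less in the others. The chromosome 2 bin held LIMS3 with ENSG00000284337 and LIMS4 with ENSG00000257207, each pair on a shared stretch and all with a copy at 100% identity. DDX20 and INKA2 in the chromosome 1 bin also shared a stretch, so these members are not independent. CRKL, MED15, UFD1, CDC45, TBX1, GP1BB, LZTR1, PRAME and BCR itself were among the 42. BCR had 2624 to 3001 bp of H3K27ac and 2526 and 390 bp of H3K27me3. Peaks of both marks were dense there in every library used. H3K27ac covered 6.49 to 16.6% of the stretch in the benchmark lists and 0.688 to 1.36% of the rest of the genome (6.45 to 13.3 times as much), and H3K27me3 covered 43.6 and 41.0% against 7.5 and 6.69% (5.81 and 6.14 times). The ratio was 5.72 to 47.5 in the lists of the first experiment and 7.96 to 28.8 in those of the PCR and extraction experiment. K562 is known to carry extra copies of this part of chromosome 22 with BCR::ABL1. Copy number was not measured here, and its part in the number of members was not tested.

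How the marks lay in the stretch depended on the libraries. In the benchmark lists H3K27me3 covered less of the bases under H3K27ac than of the rest in the ab177178 libraries (46.4% and 63.7%, 44.4% and 63.9%) and the ab4729 libraries (49.2% and 54.5%, 44.9% and 58.0%), and more in the Diagenode libraries (39.6% and 28.0%, 39.9% and 32.9%), for a mean difference of −6.13 points (exact sign-flip p = 0.3125, n = 6). The 415 members outside gave 14.9 points, above 0 in 6 of 6 libraries. In the PCR and extraction libraries the difference was 6.81 points inside the stretch (above 0 in 14 of 16 pairs) and 9.63 points outside (15 of 16). The difference between inside and outside was not tested. No member of the stretch was side by side and 40 of 42 were overlapping.

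**Figure D4:**
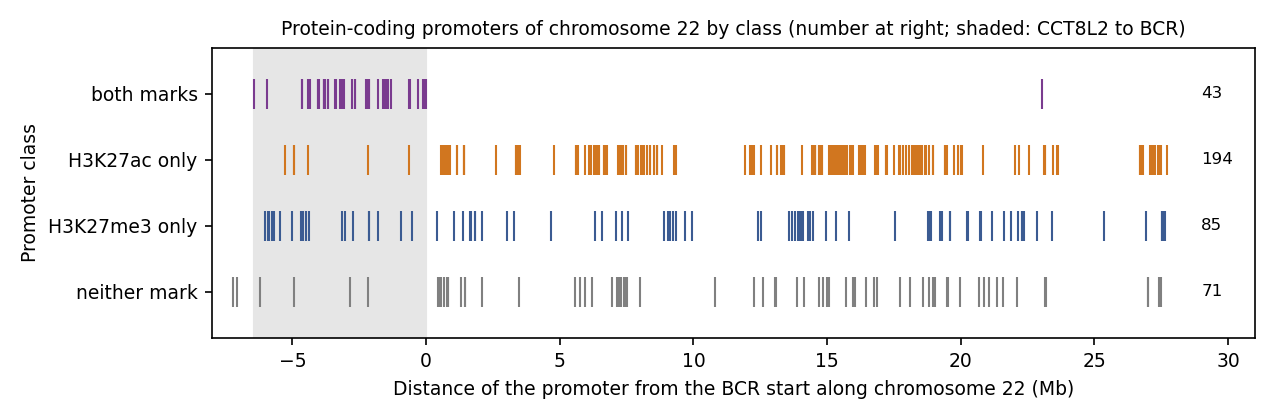
Protein-coding promoters of chromosome 22 by distance from the BCR start in Mb (horizontal axis) in 4 classes, 1 tick per promoter, with 57 promoters of other patterns not drawn. Of 43 promoters with both marks, 42 lie in the shaded stretch from CCT8L2 to BCR and 1 lies 23 Mb beyond it.

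The highest H3K27me3 enrichment among members was also found in few places. The lower of the replicates' fold values had a median of 3.32 over members and was at least 15 in 9 of them, a set picked after the values were seen. FIBCD1 and QRFP (74.5 and 91.1) and AIF1L (32.5 and 38.4) lay 184 to 383 kb downstream of the start of ABL1 on chromosome 9, and GNAZ, RAB36 and RSPH14 (24.2 and 27.2) next to BCR. The other 3 were MTRNR2L1 (28.3 and 27.1), a gene with a sequence close to the mitochondrial ribosomal RNA, and TAF11L3 and TAF11L6 (22.9 and 28.9), members of a repeated gene cluster. FIBCD1 and AIF1L were under H3K27me3 over all 3001 bp in both replicates, with 98 to 336 bp and 44 to 1099 bp of H3K27ac in 3 and 4 libraries.

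Windows with a near-identical copy elsewhere in hg19 (at least 1500 bp at 95% identity or more) made up 33 of 457 members (7.22%), against 1.67% of promoters with H3K27ac alone and 4.28% of all. They included FAM72A, FAM72B and FAM72D, NOTCH2NLA, NOTCH2NLB, NOTCH2NLC and NOTCH2NLR, LIMS3 and LIMS4, POTEE and POTEF, and NPIPA1. Reads from stretches that are identical between copies cannot be assigned to 1 of them. The values of these 33 members are therefore uncertain, to a degree that was not measured. Without them 424 members remained and the difference in cover was 13.4 points.

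In libraries the rule did not use, the difference in H3K27ac between members and promoters with H3K27ac alone did not pass the test. In the 16 H3K27ac libraries of the PCR and extraction experiment a SEACR peak touched 30.3% ± 7.71 of members and 32.5% ± 9.32 of promoters with H3K27ac alone (SD, n = 16). The difference of −2.14 points ± 5.81 was below 0 in 11 of 16 libraries (exact two-sided sign-flip permutation test, p = 0.161, adjusted p = 0.161). It depended on the comparison set. Among promoters with H3K27ac in 6 of 6 benchmark libraries on both sides it was 6.51 points in favour of members (p = 0.00436, 12 of 16 libraries), and without the chromosome 22 stretch it was −4.89 points (p = 0.00394, 14 of 16 libraries below 0), by the same exact test. The 16 libraries rest on 4 antibodies, and neither of these subsets was tested with antibodies as units. With 4 antibodies as units the −2.14 points gave p = 0.5 (exact two-sided sign-flip permutation test, smallest possible p 0.125). By antibody the 4 ActiveMotif libraries had more members than promoters with H3K27ac alone in 3 conditions and fewer in 1 (from −1.42 to 9.28 points), whereas all 4 ab177178 libraries had fewer (from −11.4 to −0.749 points).

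H3K27me3 at members was found again less often than at promoters with H3K27me3 alone. The first H3K27me3 library had a MACS2 peak at 329 of 457 members (72.0%), 89.8% of promoters with H3K27me3 alone and 3.11% of those with H3K27ac alone. In the PCR and extraction experiment the 4 libraries had a SEACR peak at 22.3, 42.9, 30.9 and 21.4% of members (11 cycles SDS, 11 cycles column, 13 cycles SDS and 13 cycles column), against 59.9, 65.7, 67.2 and 61.3% of promoters with H3K27me3 alone. The 11-cycle column library stood apart in also marking 9.76% of promoters with H3K27ac alone, where the other 3 marked 0.232 to 0.752%. Members lay below promoters with H3K27me3 alone in 5 of 5 libraries, and 4 libraries cannot reach an exact p below 0.125.

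**Figure D5:**
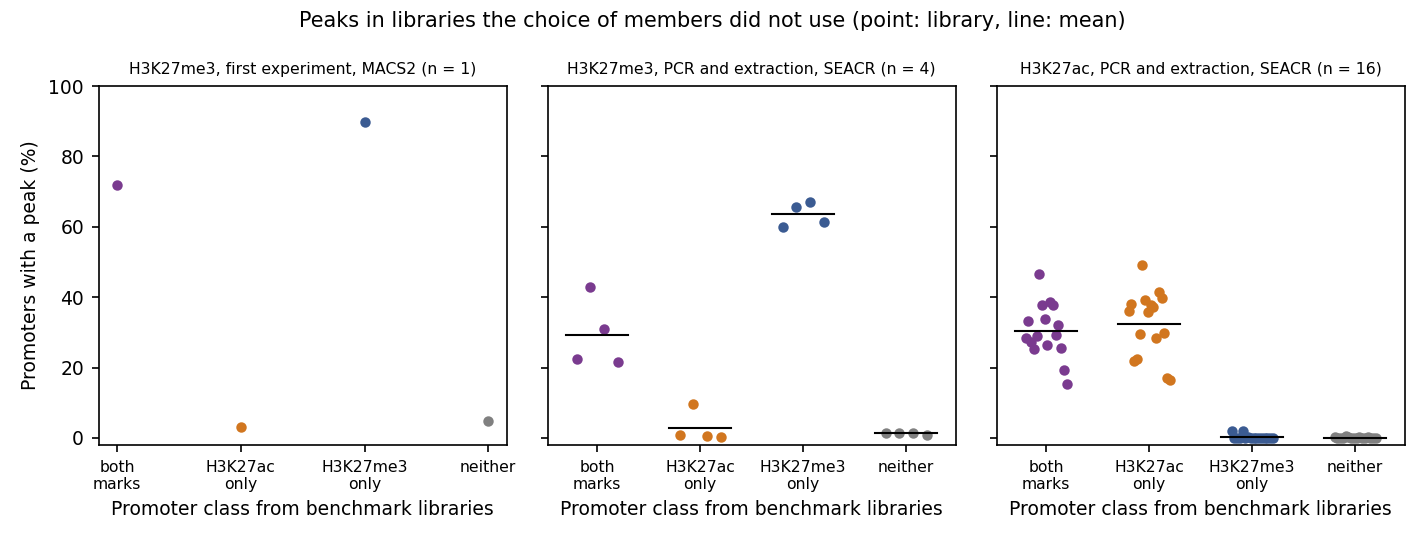
Percent of promoters with a peak (vertical axis) in libraries the choice of members did not use, for 4 promoter classes (horizontal axis), with 1 point per library and a line at the mean. Members (left in each panel) hold H3K27me3 less often than promoters with H3K27me3 alone (72.0 against 89.8% in the first library) while the H3K27ac points of members and of promoters with H3K27ac alone overlap (means 30.3 and 32.5%).

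Both marks were found together again at part of the members. With H3K27ac in at least 2 of 5 libraries and H3K27me3 in 1 of 1 in the first experiment, 225 of 457 members (49.2%) met the rule, against 3.17% of all promoters. With H3K27ac in at least 2 of 16 and H3K27me3 in at least 2 of 4 libraries of the PCR and extraction experiment, 85 members (18.6%) met it, against 0.714% of all. SEACR peaks of the benchmark libraries themselves gave 233 members (51.0%) under the original rule, against 1.4% of all, and these are the same libraries called again. Together 48 members met all 3 and 135 (29.5%) met none. The 48 included BCR, DGCR2, LZTR1, PRAME, ETV5, KAT6B, PLAG1, NUP214, GPC6 and NDUFA11, named after the counts were seen.

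In sequence the members were rich in G and C. The windows had a median GC content of 58.3%, against 53.1% at promoters with H3K27ac alone, 54.9% with H3K27me3 alone and 52.3% over all. Their median ratio of observed to expected CpG was 0.622, near the 0.619 of promoters with H3K27ac alone and above the 0.482 of those with H3K27me3 alone. Members with short H3K27me3 peaks had a median of 56.5% GC and those with wide peaks 60.9%. Motifs were sought on either strand from 200 bp upstream to 50 bp downstream of the start. GATAA (the core of the site bound by GATA factors) was found in 8.10% of members and 16.6% of all promoters. The share was 12.2% with H3K27ac alone. TATAAA was found in 4.16% of members and 8.94% of all, and the 4.63% with H3K27ac alone was near the members' share. A pair of GGAA on 1 strand with at most 20 bases between was found in 26.7% of members and 30.6% of all. With H3K27ac alone it was 33.2%. Promoters with neither mark, which are part of all, had GATAA in 27.2% and TATAAA in 17.4%. These motif shares were not tested. Another protein-coding start lay in the window of 110 members (24.1%), against 31% of promoters with H3K27ac alone and 7.06% with H3K27me3 alone. In the 347 members with no other such start the difference in cover was 15.2 points and above 0 in 6 of 6 libraries.

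Near the thresholds of the rule, 44 members had H3K27ac in exactly 2 libraries and 96 promoters with H3K27me3 in both libraries fell just outside with 1. H3K27me3 in 1 of 2 libraries kept out 801 promoters with H3K27ac. The number of members rested on the second H3K27me3 replicate: without it the rule gave 1118, and without the first replicate 597. Of the 457 members 24 had H3K27ac from the 2 ab177178 libraries and no other antibody, 3 from ab4729 alone and 0 from Diagenode alone. With the stricter q 66 members remained, 12 of them on the chromosome 22 stretch. By the classes and widths set with all peaks, 59 of the 66 were overlapping and 36 had wide H3K27me3 peaks. Overlap was not measured again with the stricter peaks. Those 66 took in FOXD2, FOXO6, TBX1, LHX3, POU3F2, GATA5, BMP1, CDH15, GPC6, RPL38, SGCE, ZNF277 and ZNF558 from the lists, and the first H3K27me3 library had a peak at 64 of them (97.0%).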

How the data were processed

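Untreated K562 cells were profiled by CUT&Tag for either mark, and the peak lists of 34 libraries of the benchmark, first antibody and PCR and extraction experiments were used. Libraries treated with trichostatin A were not used here. By the study's methods and the submitters' processing notes, the authors trimmed reads (Trim Galore 0.6.6) and aligned them to hg19 (Bowtie2 2.2.9). PCR duplicates were removed with Picard 2.6.0, and files of the original and the deduplicated alignments were made with SAMtools 1.3.1 and bedtools 2.25.0. Peaks were called by the authors in each library without a control, with MACS2 (q of 1e-05, the broad mode for H3K27me3) and SEACR (threshold 0.01, and 0.1 for H3K27me3). MACS2 was set to keep all duplicates among the reads given to it. The deposited MACS2 lists give a score, a fold enrichment ratio and −log10 p- and q-values per peak, and the deposited SEACR lists a summed and a maximum signal. The broad H3K27me3 lists reach down to a −log10 q of 1.22.

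Gene starts came from GENCODE release 44 mapped to GRCh37. Peak intervals were merged per library, and covered bases were counted in windows of 3001 bp (Python 3.11.15, NumPy 2.4.6, pandas 2.3.3, SciPy 1.17.1). Copies of windows were sought with minimap2 2.31-r1302. Sign-flip permutation tests were exact and two-sided over libraries, and shares have Clopper-Pearson intervals. On simulated windows in which both marks favoured the start independently, the difference in cover was above 0, so the equal-distance form was added after the data were seen. The coverage code was tested on simulated data against bedtools 2.31.1. The members, lists and tests were chosen with earlier results of these data known. Named genes are the 8 loci of each class with the most H3K27ac libraries and then the longest H3K27ac cover, up to 4 members per list by the same order, the 3 longest shared stretches and the 3 least filled windows. Other genes are given as members of a list or stretch, or were chosen after their values were seen. Replicates are separate biological samples by the study's reporting. Regions of the hg19 blacklist were not removed here. The deposited lists hold no read totals and depth was not analysed here, so libraries were not brought to equal depth. One member's values and one upstream sequence are not reported here.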

Additional observations from a re-analysis of the deposited data

Results flagged for a closer look

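The H3K27me3 library made with 11 cycles and column extraction lay far from the other 3 of its experiment (gap over range above Dixon's 95% critical value for 4 libraries) in the share of promoters with H3K27ac alone that had an H3K27me3 peak, at 9.76% against 0.232 to 0.752%. It also marked more members (42.9%) than the other 3 (21.4 to 30.9%), though not beyond the critical value. The 4 pairs that use it gave the 4 largest differences in cover, and without them the difference over the other 12 pairs was 6.46 points. Among 9 groups of values examined at both ends, chance flags about 1 in 20.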

How the results depend on the processing

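The rule gave 66 members with the stricter q, 282 with SEACR peaks and 271 with H3K27ac in 6 of 6 libraries, and 425 to 1118 when each library was left out, the highest without H3K27me3 replicate 2. The other alternatives for the count stayed within 1.5 times. The difference in cover was −1.95 points with the stricter q, over all members with a remaining H3K27ac peak. It was −6.13 on the chromosome 22 stretch alone (the cause was not tested) and 13.7 with 3 antibodies as units (smallest exact p 0.25). The range was 11.2 to 16.3 when each library was left out, where 5 H3K27ac libraries cannot reach the threshold. The overlap share was 89.4% with 100 bp required and 75.3% with SEACR, and 91.0 to 93.5% when each library was left out. Paired by replicate number (the replicate block), the difference was 13.6 points and the overlap share 92%, and the block changed no call. Same-numbered replicates of the marks shared only a number: their deviations over promoters had r of 0.00547, 0.0343 and 0.0209 for the 3 antibodies. The difference in the share of promoters with H3K27ac was 6.51 points with 6 of 6 libraries on both sides and −4.89 without the stretch. It was −2.14 with 4 antibodies as units (smallest exact p 0.125). The difference over pairs was 27.4 points in the first libraries and 9.25 with 4 H3K27me3 libraries as units, each in a design too small to pass the threshold. Of 18 named loci with SEACR peaks of both marks, 7 kept their shared length within the replicate spread and 11 did not. Alternatives without the stretch, without copies, at equal distance from the start, with 4 H3K27me3 libraries as units and without the 11-cycle column library were added after the data were seen. Peak calls stand in for signal throughout, and how read depth bears on the presence of a peak was not analysed here.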
